A study of Homo sapiens with 21 samples.

Results

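The genes described here are VIM, NES, SYNM, NEFL, NEFM, INA and LMNA, which encode vimentin, nestin, synemin, the light and medium neurofilament proteins, alpha-internexin and the A-type lamins. They were chosen by name from the intermediate filament genes after earlier results of these libraries were known, so that their levels and changes are given as a description and without a test. Of the 7 genes, 6 had a row among the 53515 genes of the count files. NEFL is not analysed here, because its annotated identifier had no match among the gene identifiers of the files.

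RNA was sequenced from 17 human cancer cell lines in 21 libraries, to compare lines that had become resistant to a drug with the parental line each came from. HepG2, a liver cancer line, was the parent of HepG2S1 and HepG2S3, which resist the kinase inhibitor sorafenib, and PancVB, a pancreatic cancer line, was the parent of PancB1Q and PancB1V, which resist the antimetabolite 5-fluorouracil. Of the lung cancer lines, HCC4006P1 was the parent of HCC4006ER, which resists the EGFR inhibitor erlotinib, while HCC4006P2 and HCC827P were the parents of HCC4006GR and HCC827GR, which resist the EGFR inhibitor gefitinib. Of the ovarian cancer lines, UWB1.289 was the parent of U10 and U100, which resist the PARP inhibitor olaparib, and IGROV-1 was the parent of IGROV-1/CDDP, which resists cisplatin. The resistant lines were raised by culture under drug over months, and whether any of them is a single clone is not given in the sources used here. There were 2 libraries of HepG2, of HepG2S3, of HCC4006P1 and of HCC4006ER, while the other 13 lines were sequenced once, so that most changes below have no replicate on at least 1 side. HepG2S1 and HepG2S3 share the HepG2 libraries, PancB1Q and PancB1V share PancVB, and U10 and U100 share UWB1.289.

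Intermediate filaments are ropes of coiled-coil proteins that give cells and nuclei mechanical strength, and which proteins build them depends on the cell type. Vimentin is the main filament protein of mesenchymal cells and a standard marker of the epithelial-mesenchymal transition, while most epithelial cells build their filaments from keratins. Nestin and synemin do not form filaments alone and assemble with vimentin or desmin. Neurofilament proteins and alpha-internexin belong to neurons, and A-type lamins line the inside of the nuclear envelope in differentiated cells.

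On the GRCh37 assembly, VIM lies on chromosome 10 from 17270240 to 17279592 on the plus strand, NES on chromosome 1 from 156638555 to 156647199 on the minus strand, SYNM on chromosome 15 from 99638420 to 99675798 on the plus strand, INA on chromosome 10 from 105036895 to 105050103 on the plus strand, and LMNA on chromosome 1 from 156052364 to 156109872 on the plus strand. The 250 bases upstream of the start site of 5 genes are printed from the RefSeq promoter table on GRCh38.p14, because the study sets expression beside promoter methylation and the CpG content of these windows differs widely between the genes. The promoters of the study are longer and reach to both sides of the start site, so that these windows do not describe them as a whole. They are VIM at chr10:17227991-17228240 on the plus strand, NES at chr1:156677408-156677657 on the minus strand, SYNM at chr15:99104830-99105079 on the plus strand, INA at chr10:103276888-103277137 on the plus strand and the first of 3 listed start sites of LMNA at chr1:156082323-156082572 on the plus strand. All are written 5′ to 3′ on the strand of the gene, and capitals mark GC boxes (GGGCGG, either strand) and the E-box that ZEB and SNAI factors bind (CACCTG, either strand).
VIM: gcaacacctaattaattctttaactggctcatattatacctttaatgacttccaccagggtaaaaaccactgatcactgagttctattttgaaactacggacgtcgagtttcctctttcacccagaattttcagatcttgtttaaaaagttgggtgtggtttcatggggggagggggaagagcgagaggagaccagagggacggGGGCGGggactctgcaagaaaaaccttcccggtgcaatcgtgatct
NES: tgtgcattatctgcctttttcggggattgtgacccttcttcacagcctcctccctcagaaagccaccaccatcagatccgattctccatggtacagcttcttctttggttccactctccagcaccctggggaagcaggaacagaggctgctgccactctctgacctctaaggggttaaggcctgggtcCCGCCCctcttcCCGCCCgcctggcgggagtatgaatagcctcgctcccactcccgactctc
SYNM: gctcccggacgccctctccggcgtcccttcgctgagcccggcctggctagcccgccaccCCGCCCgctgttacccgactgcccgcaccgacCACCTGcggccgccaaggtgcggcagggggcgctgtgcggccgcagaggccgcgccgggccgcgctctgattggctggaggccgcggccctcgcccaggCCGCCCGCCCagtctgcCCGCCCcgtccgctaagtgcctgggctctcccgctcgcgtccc
INA: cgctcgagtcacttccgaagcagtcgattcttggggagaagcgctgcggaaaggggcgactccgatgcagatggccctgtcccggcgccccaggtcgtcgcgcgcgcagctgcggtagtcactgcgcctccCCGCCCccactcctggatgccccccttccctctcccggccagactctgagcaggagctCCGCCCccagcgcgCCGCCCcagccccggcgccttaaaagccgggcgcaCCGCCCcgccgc
LMNA: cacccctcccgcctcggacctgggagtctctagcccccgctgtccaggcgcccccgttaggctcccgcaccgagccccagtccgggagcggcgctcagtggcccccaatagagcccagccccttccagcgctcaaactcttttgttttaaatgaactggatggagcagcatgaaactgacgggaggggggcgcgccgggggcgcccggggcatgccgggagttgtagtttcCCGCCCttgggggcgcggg

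The SYNM and INA windows were rich in CpG, with 34 and 30 CpG dinucleotides and a GC content of 78.8% and 72.8%, while the VIM and NES windows had 8 CpG each and a GC content of 46.0% and 58.0%. The LMNA window lay between them with 21 CpG and 68.8% GC, and the median over 35116 promoters was 11 CpG and 58.0% GC. A GC box stood once in the VIM window, 46 bases before the start, 2 times in that of NES and 4 times in those of SYNM and INA, where 2 of the SYNM matches overlap by 2 bases. The GC box was in 42.6% of all such windows. SYNM had an E-box 159 bases before the start, a motif that 17.5% of the windows hold, and the windows printed for the other 4 genes had none. The third LMNA start site, whose window is not printed, had an E-box 13 bases before it. The TATA box (TATAAA, 10.7% of windows), the AP-1 site (TGACTCA, 4.20%) and the cAMP response element (TGACGTCA, 1.65%), each searched on both strands, had no match in the 5 windows. These matches describe the letters only, and methylation was not analysed here.

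The total on genes ran from 9851195 to 36639473 counts per library (median 19498932), and 3 counts, taken as the smallest detected number, were 0.0819 CPM in the deepest and 0.305 CPM in the shallowest library. CPM, the unit used below, scales every library to the same total on genes. Intervals are 95% intervals, hold the error of counting alone and leave out the spread between libraries. Reads copied by PCR were counted as they came, so that the intervals may understate even the error of counting. Replicate 1 of HCC4006P1 had no counts for the 1679 genes that lie from GARS1 on chromosome 7 onwards in the file order of chromosomes and had at least 50 counts in replicate 2, among them all of chromosome 8, so that NEFM in HCC4006P1 rests on replicate 2. This gap raised the CPM of the other genes of replicate 1 by 22.1%. Some lines did not carry the markers of their labelled origin. The summed level of 7 liver markers was 38413 CPM in HepG2, 1.12 CPM in HepG2S1, where AFP, ALB, APOA1, SERPINA1 and TTR were at 0, and 32.3 CPM in HepG2S3. The summed level of 5 lung adenocarcinoma markers was 2.84 CPM in HCC4006P1 and 3.34 CPM in HCC4006ER, against 277 CPM in HCC4006P2 and 119 CPM in HCC827P, and the lung marker NKX2-1 was at 0.0802, 0, 113 and 56.0 CPM in these 4 lines. The summed level of 5 ovarian markers was 510 to 665 CPM in the 5 ovarian lines, with PAX8 at 357 to 664 CPM. In UWB1.289, U10 and U100, 3 of the markers reached 1 CPM, while in IGROV-1 and IGROV-1/CDDP only PAX8 did. The summed level of 9 fibroblast markers was 25.3 CPM in HepG2, 580 CPM in HepG2S1, 419 CPM in HepG2S3, 16.0 CPM in HCC4006P1 replicate 2 and 1583 CPM in HCC4006ER, with 0 of the 9 at 0 in these 3 resistant lines. It was also higher in HCC4006GR (166 CPM, against 29.7 CPM in HCC4006P2) and U10 (187 CPM, against 15.7 CPM in UWB1.289). Most of the sum was DCN in HepG2S1 (399 CPM) and HepG2S3 (345 CPM) and COL1A2 in HCC4006ER (1332 CPM) and HCC4006GR (100 CPM). In U10 most of it was THY1 (165 CPM), with COL3A1, DCN, FAP and LUM at 0. The summed lung markers were lower in HCC4006GR (24.4 CPM) and HCC827GR (29.2 CPM) than in their parents. These marker levels moved in the same lines as several changes below, and their part in those changes was not tested. In bulk libraries, fewer cells of a type and less RNA per cell cannot be told apart.

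VIM went from almost no reads to a highly expressed gene in the HepG2 lines and was already high in the PancVB lines. The 2 HepG2 libraries held 4 and 3 VIM counts, 0.109 CPM (Wilson interval 0.0425 to 0.281) and 0.0861 CPM (0.0293 to 0.253). HepG2S1 had 1215 CPM and the HepG2S3 libraries had 1137 and 1094 CPM. The levels of these resistant lines lay far from those of HepG2 without overlap, and the ratio was 12406 in HepG2S1 (interval 6019 to 30863) and 11392 in HepG2S3 (5529 to 28336), wide because it rests on 7 HepG2 counts. In the pancreatic lines VIM was at 2332 CPM in PancVB, 2077 CPM in PancB1Q and 2442 CPM in PancB1V, the 3 highest levels of the 17 lines. HCC4006P1 had 537 and 598 CPM and HCC4006ER 1433 and 1516 CPM. Both libraries of the resistant line thus lay above both of the parental line, at 2.59 times the level (2.55 to 2.64). The gap in HCC4006P1 replicate 1 raised the parental CPM in this ratio. HCC4006P2 had 160 CPM and HCC4006GR 604 CPM, a ratio of 3.77 (3.60 to 3.95), and HCC827P had 65.6 CPM and HCC827GR 675 CPM, a ratio of 10.3 (9.68 to 10.9). HCC4006P1 and HCC4006P2, which carry the same line name, were thus far apart, and the HCC4006P1 libraries stood close to HCC4006GR. The ovarian lines varied little within a family. UWB1.289 had 263 CPM, U10 221 CPM and U100 208 CPM, and IGROV-1 had 384 CPM against 487 CPM in IGROV-1/CDDP.

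Ordered by level, the lines ran from 0.0976 CPM in HepG2 over a median of 568 CPM to 2442 CPM in PancB1V. Replicate libraries of a line differed in VIM by up to 1.11 times in CPM. Over the genes that both HCC4006P1 libraries hold, the largest replicate ratio was 1.36, in HCC4006P1, and 11 of the 16 steps in the order were no larger, so that most neighbouring lines cannot be ranked. On that scale the log2 difference of HCC4006ER from HCC4006P1 was 1.49 for VIM. The antisense gene VIM-AS1 overlaps the 5′ part of VIM by 1778 bases. VIM-AS1 had 0.0273 to 8.54 CPM in the libraries, with the highest value in PancB1V, which is small beside VIM in all lines but HepG2, where it had a mean of 0.258 CPM. Whether the counting used the strand is not given in the sources used here, so that reads in the overlap cannot be assigned.

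**Figure D1:**
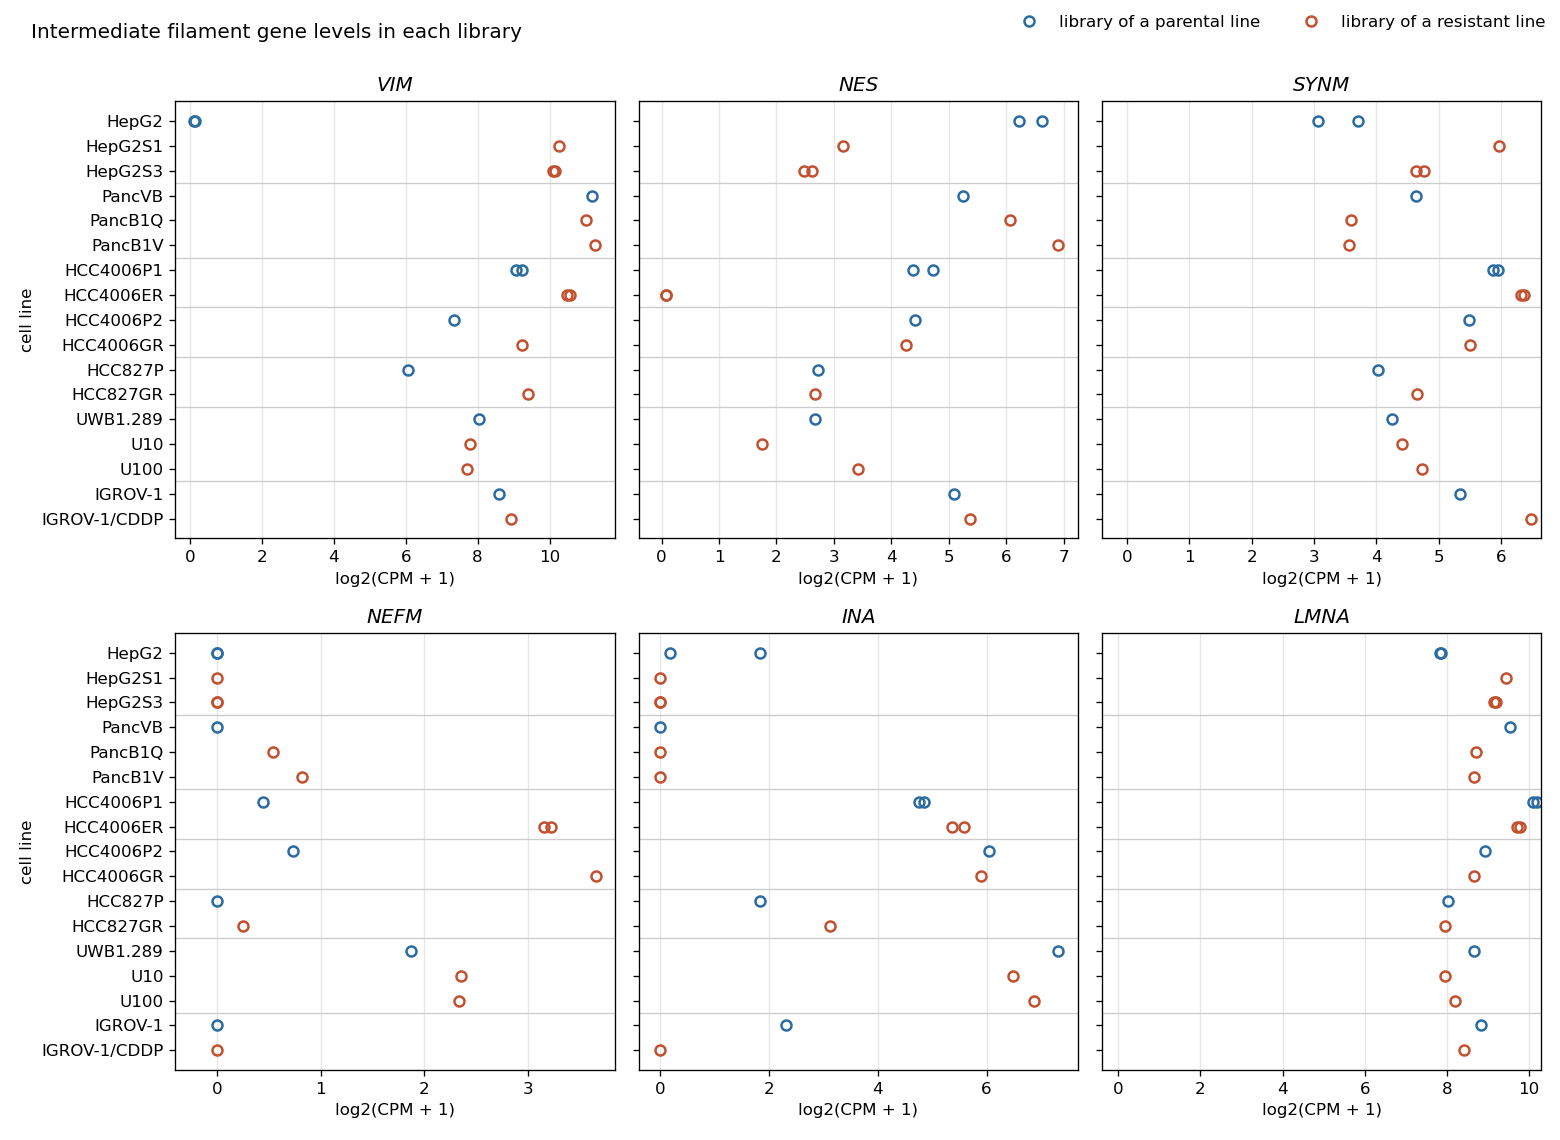
Level of the 6 intermediate filament genes in each library as log2(CPM + 1), with the lines in rows, families separated by grey lines and parental libraries in blue and resistant libraries in red; each panel has its own axis range. VIM sits near 0 in HepG2 alone, and NES sits near 0 in HCC4006ER alone.

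NES, whose protein needs vimentin or a similar partner to build filaments, was highest in PancB1V, HepG2 and PancB1Q and was far lower in HepG2S1, HepG2S3 and HCC4006ER than in their parents. The HepG2 libraries had 97.9 and 74.0 CPM, HepG2S1 7.92 CPM (6.34 to 9.88) and the HepG2S3 libraries 5.12 and 4.57 CPM. HepG2 thus had 10.9 times the level of HepG2S1 (8.71 to 13.8) and 17.8 times that of HepG2S3 (15.8 to 20.0), without overlap between the libraries. HCC4006P1 had 25.5 and 19.7 CPM from 478 and 385 counts, while each HCC4006ER library held 1 count, 0.0506 CPM (0.00893 to 0.287) and 0.0514 CPM (0.00907 to 0.291). The ratio of HCC4006P1 to HCC4006ER was 443, with an interval of 122 to 3664 that reflects the 2 counts. The other lung pairs were close in NES, with 20.4 CPM in HCC4006P2 and 18.1 CPM in HCC4006GR (ratio 0.885, 0.746 to 1.05) and 5.60 CPM in HCC827P and 5.34 CPM in HCC827GR (parent over resistant 1.05, 0.774 to 1.42). Both intervals include equal levels. NES was higher in the resistant pancreatic lines, from 37.1 CPM in PancVB to 66.1 CPM in PancB1Q (1.78, 1.64 to 1.94) and 119 CPM in PancB1V (3.22, 2.98 to 3.49). In the ovarian lines it was 5.33 CPM in UWB1.289, 2.34 CPM in U10 (0.439, 0.262 to 0.713) and 9.69 CPM in U100 (1.82, 1.33 to 2.50), so that U10 and U100 lay on opposite sides of their parent, and 32.9 CPM in IGROV-1 against 40.3 CPM in IGROV-1/CDDP. HepG2S1, HepG2S3 and HCC4006ER, with the lowest NES relative to the parent, were also the lines with the highest summed fibroblast markers, and their part in the NES difference was not tested. Replicate libraries of a line differed in NES by up to 1.32 times, and 9 of the 16 steps in the order of the lines were no larger.

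SYNM encodes synemin, which links filaments of vimentin and desmin to the cell cortex. It was measured in all lines, from 9.72 CPM in HepG2 to 88.0 CPM in IGROV-1/CDDP. HepG2 had 12.1 and 7.37 CPM, HepG2S1 61.4 CPM and HepG2S3 23.8 and 26.3 CPM, so that the resistant libraries lay above both parental libraries. On the log2(CPM + 1) scale, the difference from HepG2 was 2.54 ± 0.45 in HepG2S1 (SD over 2 pairings of libraries) and 1.28 ± 0.38 in HepG2S3 (SD over 4 pairings). HCC4006ER, with 78.8 and 81.6 CPM, also lay above HCC4006P1, with 57.8 and 61.2 CPM. IGROV-1/CDDP had 88.0 CPM against 39.4 CPM in IGROV-1 (ratio 2.23, 2.08 to 2.41). The pancreatic lines went the other way. PancVB had 24.0 CPM, PancB1Q 11.1 CPM and PancB1V 10.8 CPM, so that PancVB was at 2.17 (1.88 to 2.50) and 2.23 (1.92 to 2.59) times the resistant level. Of the remaining lines, HCC4006P2 and HCC4006GR had 43.8 and 44.5 CPM (ratio 1.02, 0.910 to 1.14), HCC827P and HCC827GR 15.2 and 24.1 CPM (1.58, 1.35 to 1.86), and UWB1.289, U10 and U100 18.2, 20.4 and 25.6 CPM. The HepG2 replicates differed in SYNM by 1.64 times, and all 16 steps in the order of lines were smaller than that, so that neighbouring lines cannot be ranked.

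INA encodes alpha-internexin, which joins the neurofilament proteins in neurons. The gene was highest in the UWB1.289 and HCC4006 lines, low in HCC827P, HCC827GR, IGROV-1 and HepG2, and without a count in the rest. UWB1.289 had 158 CPM, U10 88.8 CPM and U100 116 CPM, the 3 highest levels. HCC4006P1 had 27.7 and 26.1 CPM, HCC4006ER 40.3 and 46.7 CPM, HCC4006P2 65.0 CPM and HCC4006GR 58.9 CPM. INA was thus higher in the erlotinib-resistant line than in its parent (log2(CPM + 1) difference 0.67 ± 0.13, SD over 4 pairings). The gefitinib-resistant line HCC4006GR was at 0.907 times its parent (0.825 to 0.996). That ratio rests on 1 library per line, and its interval leaves out the spread between libraries. HCC827P had 2.54 CPM and HCC827GR 7.72 CPM, a ratio of 3.04 (2.14 to 4.40). No INA count was found in the 3 pancreatic lines, in HepG2S1, in HepG2S3 or in IGROV-1/CDDP, each of which allows up to 3 counts per library. IGROV-1 had 108 counts, 3.93 CPM, so that IGROV-1/CDDP was at least 33.1-fold lower against a floor of 3 counts (lower limit of the exact interval 26.5). The 2 HepG2 libraries differed, with 5 counts (0.136 CPM, 0.0583 to 0.319) in replicate 1 and 89 counts (2.55 CPM, 2.08 to 3.14) in replicate 2, a ratio of 18.7. Against their mean, HepG2S1 was at least 4.42-fold (exact lower limit 3.44) and HepG2S3 at least 14.0-fold lower (21.9) on the same floor per library, and without HepG2 replicate 2 the log2(CPM + 1) difference of both was -0.18 in place of -1.23. NT5C2, on the opposite strand, overlaps INA by 468 bases and had 62.8 to 291 CPM in the libraries, including those with INA at 0.

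NEFM, at 24771271 to 24776611 on chromosome 8, encodes the medium neurofilament protein and had the lowest maximum of the 6 genes. It had no count in HepG2, HepG2S1, HepG2S3, PancVB, HCC827P, IGROV-1 and IGROV-1/CDDP. The 2 highest levels were those of resistant HCC4006 lines, 11.6 CPM in HCC4006GR and 8.35 and 7.91 CPM in HCC4006ER, against 0.661 CPM in HCC4006P2 (9 counts) and 0.359 CPM in HCC4006P1 replicate 2 (7 counts). NEFM was thus 17.5 times higher in HCC4006GR (9.02 to 38.9) and 22.6 times higher in HCC4006ER (10.9 to 56.8). UWB1.289 had 2.67 CPM, U10 4.10 CPM and U100 4.04 CPM, and the ratios of 1.54 (0.942 to 2.53) and 1.52 (0.955 to 2.44) have intervals that include equal levels. PancB1Q had 13 counts (0.455 CPM) and PancB1V 19 counts (0.765 CPM), at least 3.30-fold and at least 5.54-fold more than the floor of 3 counts in PancVB, with exact lower limits of 2.32 and 4.08. HCC827GR held 3 counts, at the floor. In these lines NEFM was found with counts only where INA also had counts, except in PancB1Q and PancB1V.

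LMNA encodes lamins A and C and was the most evenly expressed of the genes, between 229 CPM in HepG2 and 1130 CPM in HCC4006P1. The HepG2 libraries had 232 and 226 CPM, HepG2S1 699 CPM and the HepG2S3 libraries 566 and 588 CPM, 3.05 (2.97 to 3.14) and 2.52 (2.47 to 2.57) times the HepG2 level. These were the only 2 of the 10 pairs in which LMNA was higher in the resistant line. PancVB had 736 CPM, PancB1Q 419 CPM and PancB1V 405 CPM, so that the parent was at 1.76 (1.72 to 1.80) and 1.82 (1.77 to 1.86) times the resistant level. HCC4006P1 had 1098 and 1162 CPM and HCC4006ER 836 and 875 CPM, without overlap, with the parent at 1.32 times the resistant level (1.30 to 1.34). HCC4006P2 had 482 CPM and HCC4006GR 404 CPM, HCC827P 259 CPM and HCC827GR 245 CPM, UWB1.289 405 CPM, U10 246 CPM and U100 291 CPM, and IGROV-1 456 CPM and IGROV-1/CDDP 343 CPM. In all 8 pairs outside HepG2 the parent had the higher LMNA level, by 1.06 to 1.82 times. In CPM the ratios in HCC827P (1.06, 1.01 to 1.10) and HCC4006P2 (1.19, 1.15 to 1.24) were the smallest. They lay under the largest replicate ratio given below, and so did HCC4006P1 over HCC4006ER on the scale of that replicate ratio. Apart from HCC4006P1 and HCC4006ER, these lines had 1 library each. The pancreatic pairs share a parent, as do the UWB1.289 pairs, so that the 8 pairs are not independent. LMNA replicates differed by up to 1.06 times in CPM and, over the genes that both HCC4006P1 libraries hold, by up to 1.30 times in HCC4006P1. All 16 steps in the order of the lines were within the latter ratio. On that scale the log2 difference of HCC4006ER from HCC4006P1 was -0.29 in place of -0.40, which is smaller than this replicate ratio. The HCC4006P1 libraries had 1128 and 1462 CPM over those genes and the HCC4006ER libraries 1038 and 1084 CPM, still without overlap.

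**Figure D2:**
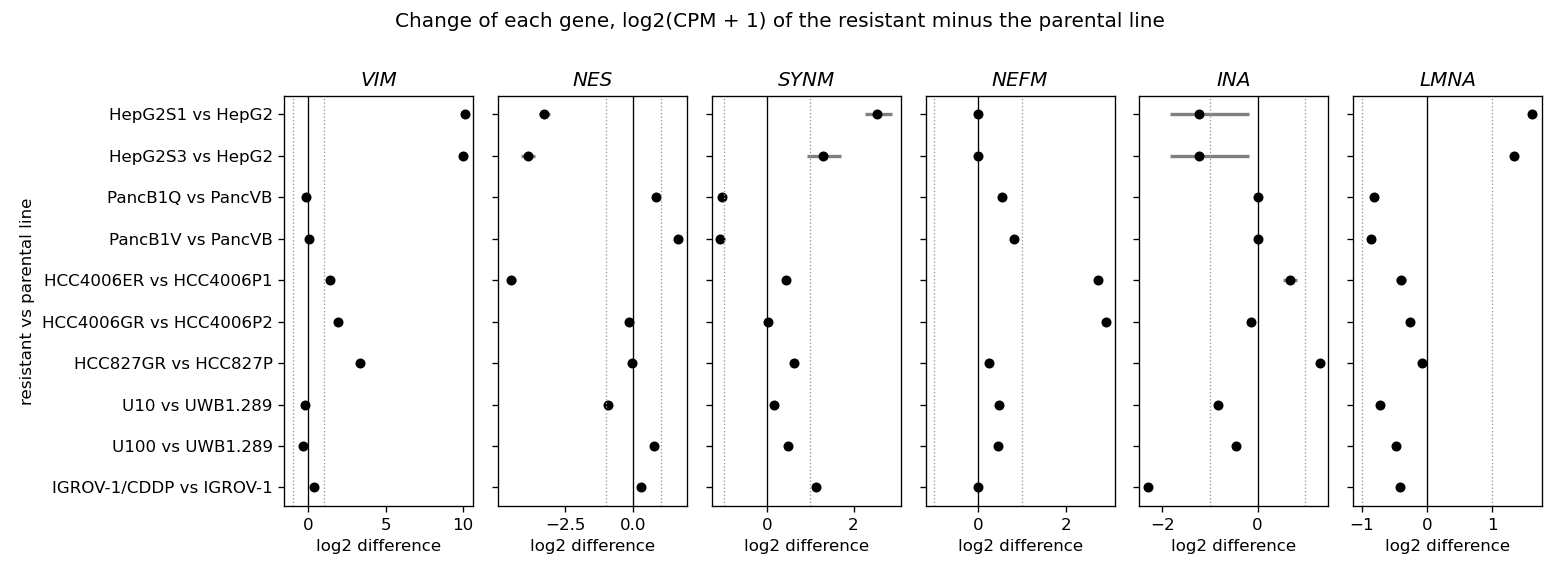
Difference of log2(CPM + 1) between each resistant line and its parental line for the 6 genes, with points at the value from line means, grey bars over the range of all pairings of libraries where a line had 2, and dotted lines at a 2-fold change. VIM in the HepG2 pairs reaches 10.11 and 9.99, NES in HCC4006ER -4.49, and LMNA is above 0 in the HepG2 pairs and below 0 in the other 8.

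Counted over the 10 pairs, VIM was at least 2-fold higher in 5 resistant lines and lower in 0, NES higher in 1 and lower in 3, SYNM higher in 3 and lower in 2, NEFM higher in 2 and lower in 0, INA higher in 1 and lower in 3, and LMNA higher in 2 and lower in 0. These counts use the log2(CPM + 1) difference, which understates changes of low levels, and they are the values the genes were chosen with. The HepG2 pairs held the most, with VIM, SYNM and LMNA at least 2-fold higher and NES and INA at least 2-fold lower in both. There 25.5% of all genes at 1 CPM or more were at least 2-fold higher and 18.4% lower in HepG2S1, and 27.3% and 17.7% in HepG2S3. In PancB1Q only SYNM passed 2-fold, downwards (9.41% of all genes, with 6.10% upwards), and in PancB1V NES passed upwards (8.89%) and SYNM downwards (7.25%). In HCC4006ER VIM and NEFM were higher (10.6%) and NES lower (12.4%). These HCC4006ER shares are of 11998 genes and leave out those without counts in HCC4006P1 replicate 1, NEFM among them. In HCC4006GR VIM and NEFM were higher (7.75%) and none lower (7.47%), and in HCC827GR VIM and INA were higher (10.6%) and none lower (7.67%). In U10 and U100 no gene passed 2-fold in either direction (6.27% and 6.43% of all genes higher, 5.11% and 1.73% lower), and in IGROV-1/CDDP SYNM was higher (5.55%) and INA lower (7.21%). Scaling library sizes by TMM moved the median difference of all genes from 0.25 to -0.17 in HepG2S1 and from 0.28 to -0.11 in HepG2S3. In PancB1Q that median moved from -0.12 to 0.08. With this scaling the VIM difference in PancB1Q turned from -0.17 to 0.06. SYNM (0.89) and LMNA (0.90) in HepG2S3 and SYNM in PancB1Q (-0.84) came under 2-fold, while NES in PancB1Q (1.04) passed it.

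Compared per kilobase of annotated exon, VIM was the highest of the 6 genes in 13 lines and LMNA in the other 4, HepG2, HCC4006P1, HCC4006P2 and HCC827P, all parental. In HepG2, LMNA had 28.1 CPM per kilobase, NES 15.4 and VIM 0.0189, while HepG2S1 had 235 for VIM, 85.8 for LMNA and 1.42 for NES. The level per kilobase of VIM was 0.79 times that of LMNA in HCC4006P1 and 2.71 times in HCC4006ER, 0.52 and 2.35 times in HCC4006P2 and HCC4006GR, and 0.40 and 4.33 times in HCC827P and HCC827GR. PancB1V had the highest ratio, 9.49, from a PancVB value of 4.98. In all 10 pairs the ratio was higher in the resistant line, by the smallest step in U100 (1.12 against 1.02 in UWB1.289). VIM itself was lower than in the parent in PancB1Q (log2(CPM + 1) difference -0.17), U10 (-0.25) and U100 (-0.34). LMNA was lower by more there (-0.81, -0.71 and -0.48), so that the ratio rose without a rise of VIM. These steps rest on 1 library per line, and pairs with a shared parent are not independent. In UWB1.289 VIM (50.8 CPM per kilobase), LMNA (49.7) and INA (48.8) were nearly level. The methods name a whole-transcript kit and a 3′ end kit without saying which library had which, and a level per kilobase does not hold for 3′ end libraries.

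**Figure D3:**
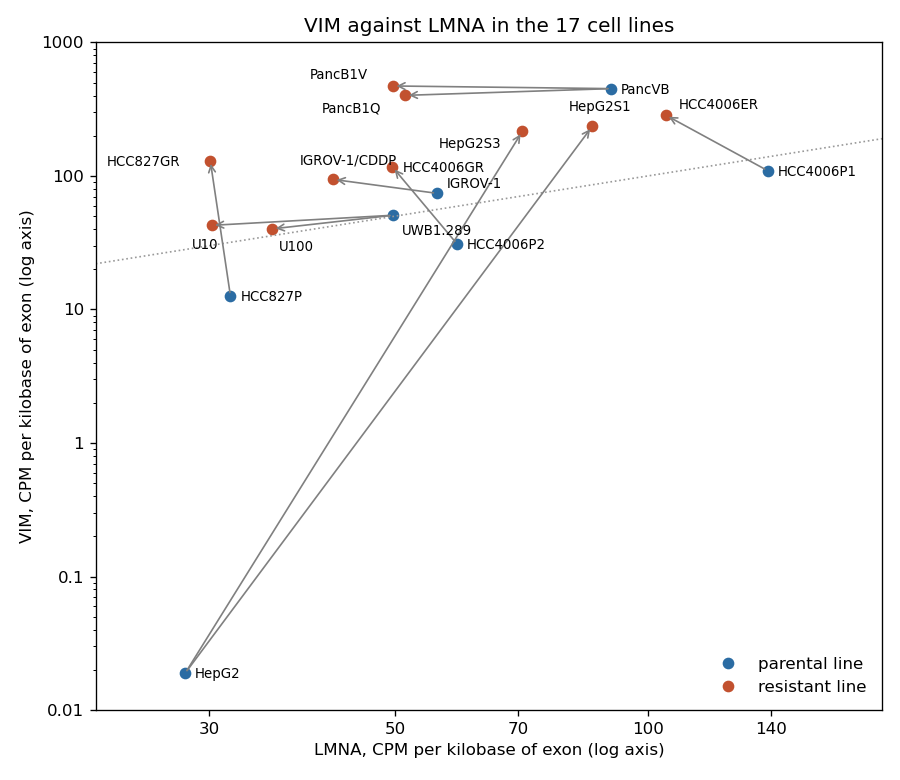
CPM per kilobase of exon of VIM against LMNA in the 17 lines on log axes, with parental lines in blue, resistant lines in red, an arrow from each parent to its resistant lines and a dotted line where the genes are level. In all 10 pairs the arrow ends higher relative to the dotted line than it starts. In PancB1Q, U10 and U100 the VIM level itself is lower than in the parent. The HepG2 arrows rise from 0.0189 to 235 and 215 CPM per kilobase of VIM.

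Across the 17 lines, the log2(CPM + 1) levels of VIM and LMNA had a Pearson r of 0.56, SYNM and LMNA 0.55, NES and INA -0.51, NES and SYNM -0.35 and VIM and NES -0.13. The 17 lines include parents with their resistant lines and are not independent. Among 13138 genes outside the stretch without counts, the level most like that of VIM was that of FZD2, a Wnt receptor (r = 0.93), followed by HDHD5 (0.90) and PPDPF (0.89). For NES they were FAM222B (0.91), the adhesion molecule ICAM2 (0.83) and RALGAPA1 (0.82), and for INA the protocadherin PCDHA10 (0.93), HAGLROS (0.93) and TPTEP1 (0.93). For SYNM the most alike were TTC23 (0.91), GON4L (0.90) and the transcription factor USF1 (0.89). TTC23 lies from 99676528 to 99791428 on chromosome 15, next to the end of SYNM at 99675798. For LMNA they were CLASRP (0.90), HFE (0.90) and HSPBP1 (0.87). ICAM2, PCDHA10 and HAGLROS had a median under 1 CPM over the lines, so that their r rests on few lines. VIM was at 0.0976 CPM in HepG2 and at 65.6 CPM or more in all other lines. HepG2 thus weighs heavily in every r of VIM, and r without HepG2 was not computed.

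The other genes of the filament system, chosen with earlier results known, were tested in the pairs with replicates by the quasi-likelihood test of edgeR over all genes. They were 11 other non-keratin filament genes, 11 genes that link or turn over filaments and 19 partners of the lamina, of which 38 had a row in the files. P-values measure the spread between the libraries of a line, which may be technical, since nothing in the labels says that they come from separate cultures. In HepG2S3 against HepG2, 25 of 34 tested genes passed an adjusted p of 0.05 (73.5%), 15 higher and 10 lower, against 63.5% of all 16929 genes (31.4% higher, 32.1% lower). Without HepG2S3 replicate 1 the count was 14, beside 7362 of 17745 genes in all, and without replicate 2 it was 15, beside 7341 of 17811. In HCC4006ER against HCC4006P1, 15 of 29 passed (51.7%), 4 higher and 11 lower, against 49.0% of 12791 genes (24.1% higher, 24.9% lower). The count was 10 without HCC4006ER replicate 1, beside 4046 of 13170 genes in all, and 9 of 33 where genes without counts in HCC4006P1 replicate 1 were kept, beside 3417 of 15978. Neither share is far from that of all genes. The median log2 fold change was 0.17 over the filament system genes and -0.01 over all genes in HepG2S3, and -0.25 and 0.01 in HCC4006ER.

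Of the other filament genes, 5 of 7 tested passed in HepG2S3 (3 higher, 2 lower) and 4 of 6 in HCC4006ER (3 higher, 1 lower), beside 63.5% and 49.0% of all genes. SYNC, which encodes syncoilin, rose in both, from 15.4 and 15.0 to 36.9 and 35.8 CPM in HepG2S3 (log2 fold change 0.94 ± 0.14 SE, adjusted p = 0.00301) and from 9.94 and 6.92 to 55.2 and 51.6 CPM in HCC4006ER (2.73 ± 0.15, adjusted p = 3.5e-05). IFFO2 fell in HepG2S3 from 40.7 and 36.0 to 13.6 and 12.7 CPM (-1.86 ± 0.16, adjusted p = 0.000452) and rose in HCC4006ER from 12.9 and 12.8 to 51.9 and 47.6 CPM (1.99 ± 0.17, adjusted p = 0.000198). The difference between the changes was 3.83 ± 0.24 (edgeR interaction test, adjusted p = 2.94e-06), a test that 55.9% of 14479 genes passed. IFFO1 fell in HepG2S3 from 20.4 and 18.8 CPM to 0.312 and 0.228 CPM (adjusted p = 5.84e-05). GFAP, the filament gene of astrocytes, stood at 21 and 11 counts in HCC4006ER against 5 and 3 in HCC4006P1 (adjusted p = 0.0237), and PRPH, which encodes peripherin of peripheral neurons, at 34 and 20 counts in HepG2S3 against 8 and 3 in HepG2 (adjusted p = 0.0182). The B-type lamin LMNB1 fell in HCC4006ER from 303 and 276 to 182 and 210 CPM (-0.52 ± 0.14, adjusted p = 0.0226). In HepG2S3 its value was 0.63 ± 0.41 (adjusted p = 0.227), with HepG2 libraries of 90.7 and 37.3 CPM. LMNB2 passed in neither pair, with -0.04 ± 0.23 in HepG2S3 and 0.49 ± 0.22 in HCC4006ER.

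Of the linker and turnover genes, 7 of 9 tested passed in HepG2S3, 4 higher and 3 lower, and 5 of 7 in HCC4006ER, all lower, beside 63.5% and 49.0% of all genes, with 32.1% and 24.9% of all genes lower. DSP, which encodes desmoplakin and ties keratin filaments to desmosomes, fell in HepG2S3 from 1121 and 1197 to 167 and 166 CPM (-3.11 ± 0.14, adjusted p = 7.31e-05) and in HCC4006ER from 337 and 234 to 86.0 and 74.7 CPM (-1.76 ± 0.13, adjusted p = 0.000122). PPL, which encodes periplakin, rose in HepG2S3 from 42.7 and 33.3 to 273 and 290 CPM (2.57 ± 0.17, adjusted p = 0.000214) and fell in HCC4006ER from 787 and 629 to 133 and 133 CPM (-2.36 ± 0.11, adjusted p = 2.36e-05), a difference of -4.96 ± 0.21 between the pairs (edgeR interaction test, adjusted p = 3.36e-07). EVPL, which encodes envoplakin, had 113 and 90.3 CPM in HCC4006P1 and 1 and 0 counts in HCC4006ER (ratio 3976, 713 to 157070, adjusted p = 6.92e-06), while in HepG2S3 its change was 0.05 ± 0.17 (adjusted p = 0.807). MACF1, a linker of actin and microtubules, fell by 1.09 in HepG2S3 (SE 0.17, adjusted p = 0.00347) and by 1.10 in HCC4006ER (SE 0.11, adjusted p = 0.000472). PLEC, which encodes the filament linker plectin, rose in HepG2S3 from 168 and 134 to 450 and 487 CPM (1.32 ± 0.16, adjusted p = 0.00153), and TCHP rose there by 1.05 ± 0.15 (adjusted p = 0.0024). TRIM2, a ubiquitin ligase of the light neurofilament protein, fell in HCC4006ER from 161 and 68.6 to 28.2 and 21.2 CPM (-2.11 ± 0.30, adjusted p = 0.00175). DST fell in HepG2S3 (-0.49 ± 0.13, adjusted p = 0.0206) and gave -0.25 ± 0.35 in HCC4006ER, where the HCC4006P1 libraries had 878 and 305 CPM.

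Of the lamina partners, 13 of 18 tested passed in HepG2S3, 8 up and 5 down, beside 63.5% of all genes (31.4% higher, 32.1% lower). In HCC4006ER 6 of 16 passed, 1 up and 5 down, which is 37.5% beside 49.0% of all genes (24.1% higher, 24.9% lower). LMNA itself was higher in HepG2S3 and lower in HCC4006ER, and a link between it and these genes was not tested. TMPO, which encodes the lamina-associated polypeptide LAP2, went from 70.6 and 54.2 to 296 and 308 CPM in HepG2S3 (1.96 ± 0.18, adjusted p = 0.000523) and fell in HCC4006ER from 190 and 183 to 118 and 139 CPM (-0.50 ± 0.16, adjusted p = 0.0375). EMD, which encodes emerin, rose in HepG2S3 from 27.1 and 25.7 to 121 and 119 CPM (1.87 ± 0.13, adjusted p = 0.000219). ANKLE2 (1.44 ± 0.13, adjusted p = 0.000513) and BANF1, which encodes the chromatin-bridging factor BAF (1.07 ± 0.14, adjusted p = 0.0017), rose there too, and in HCC4006ER their values were -0.18 ± 0.13 and 0.22 ± 0.15. The nesprin genes SYNE1 and SYNE2, which couple the nucleus to the cytoskeleton, rose in HepG2S3 by 1.13 ± 0.13 (adjusted p = 0.00132) and 1.85 ± 0.13 (adjusted p = 0.000229). SYNE1 also rose in HCC4006ER, from 28.1 and 21.4 to 81.6 and 73.9 CPM (1.71 ± 0.13, adjusted p = 0.000117), while SYNE2 gave -0.49 ± 0.40 with HCC4006P1 libraries of 291 and 88.3 CPM. SUN1, the nesprin anchor in the inner nuclear membrane, rose in HepG2S3 (0.41 ± 0.13, adjusted p = 0.0376) and fell in HCC4006ER (-0.83 ± 0.11, adjusted p = 0.00134), a difference of -1.27 ± 0.17 (edgeR interaction test, adjusted p = 0.000308).

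**Figure D4:**
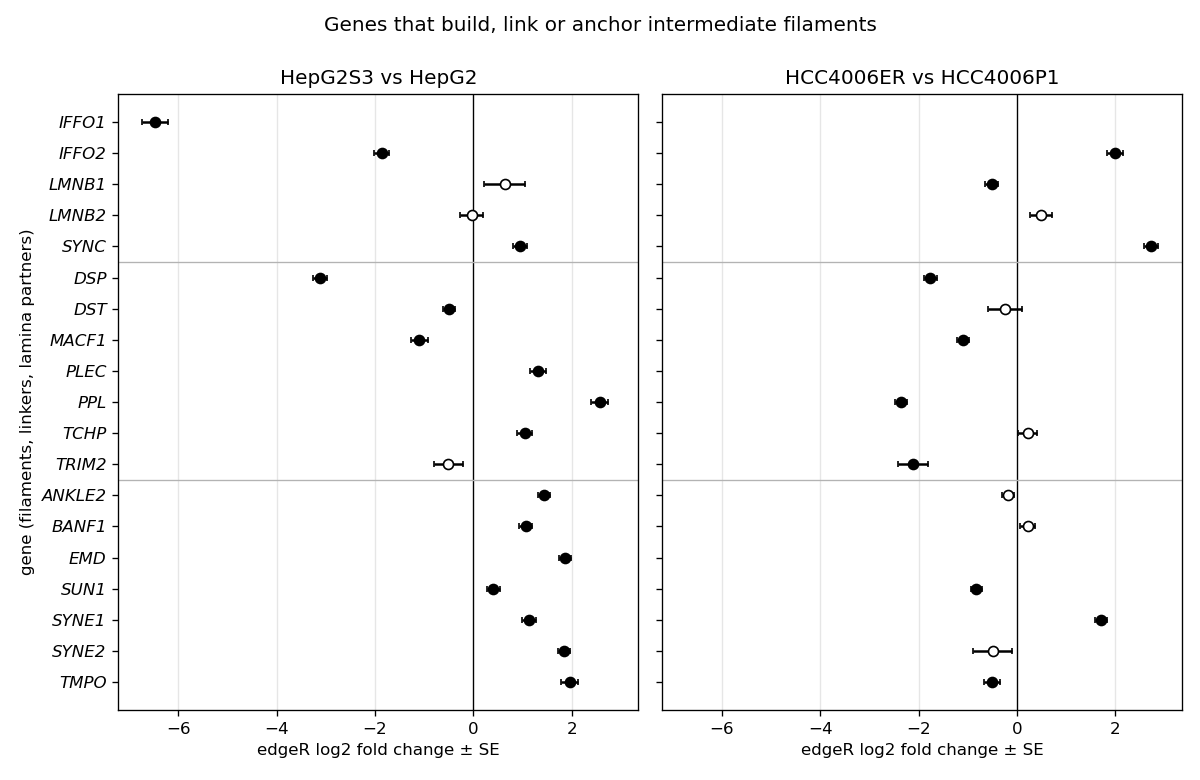
Log2 fold change with SE from edgeR for named filament, linker and lamina partner genes in HepG2S3 against HepG2 and in HCC4006ER against HCC4006P1, with filled points at an adjusted p under 0.05, no point where a gene was not tested, and genes with few counts in a line left out. PPL, IFFO2, TMPO and SUN1 lie on opposite sides of 0 in the pairs, and DSP and MACF1 lie below 0 in both.

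Neuronal and neuroendocrine markers were set beside INA and NEFM. Of 17 listed, 16 had a row, and between 1 and 6 of them reached 1 CPM in a line. The UWB1.289 lines with the highest INA had 6 each, led by UCHL1 at 543 CPM in UWB1.289, 357 CPM in U10 and 331 CPM in U100, and the HCC4006 lines had 4 to 6. Among lines without an INA count the number was 5 in PancB1Q and PancB1V, 4 in PancVB, HepG2S1 and IGROV-1/CDDP and 3 in HepG2S3, while HCC827P and HCC827GR, with INA, had 1 and 2. In PancB1Q and PancB1V, which had NEFM but no INA, NCAM1 led with 179 and 209 CPM. In the HepG2S3 test 4 of 6 markers passed (3 higher, 1 lower) and in the HCC4006ER test 6 of 7 (3 higher, 3 lower), beside the 63.5% and 49.0% of all genes. MAP2, the dendrite microtubule protein, went from 7 and 2 counts in HepG2 to 109 and 132 CPM in HepG2S3 (ratio 956, 503 to 2091, adjusted p = 5.5e-05) and fell in HCC4006ER from 23.3 and 14.8 to 5.92 and 4.16 CPM (-1.85 ± 0.23, adjusted p = 0.000945). SNAP25 of the synaptic fusion machinery rose to 5.87 and 6.36 CPM in HepG2S3 (adjusted p = 0.000156) and to 0.961 and 0.924 CPM in HCC4006ER (adjusted p = 0.00203), from 4 counts in each HepG2 library and from 1 and 0 counts in HCC4006P1. The granule protein gene SCG2 had 35.7 and 31.4 CPM in HCC4006ER against 0.481 and 0.667 CPM in HCC4006P1 (5.89 ± 0.27, adjusted p = 1.88e-05) and 0.625 and 0.849 CPM in HepG2S3 against 1 and 4 counts in HepG2 (adjusted p = 0.00726). NCAM1 rose in HCC4006ER to 17.6 and 19.1 CPM from 0 and 1 counts (ratio 701, 125 to 27735, adjusted p = 2.36e-05), where NEFM and INA were also higher. ENO2 (-1.39 ± 0.15, adjusted p = 0.000577) and UCHL1 (-2.81 ± 0.31, adjusted p = 0.000617) fell in HCC4006ER, and CHGB fell in HepG2S3 from 2.18 and 4.45 to 0.25 and 0.0979 CPM (adjusted p = 0.00193).

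Over the 7 parental lines, with resistant lines of one parent summed and the parent as a block in edgeR, 0 of 33 filament system genes, 0 of 8 neuronal markers and 0 of all 15847 genes (0%) passed an adjusted p of 0.05. At an unadjusted p under 0.05 there were 3, 2 and 722, and DESeq2 called 0, 2 and 106. The 3 filament system genes at an unadjusted p under 0.05 were SYNE1 (0.89 ± 0.33, adjusted p = 0.984), SYNE2 (0.56 ± 0.21, adjusted p = 0.984) and LBR, named after its value was seen (-0.63 ± 0.19, adjusted p = 0.984), and the neuronal markers were NCAM1 (3.66 ± 0.76, adjusted p = 0.876) and SNAP25 (3.42 ± 0.92, adjusted p = 0.984).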

How the data were processed

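Counts per gene, as deposited by the authors, came from reads aligned to hg19 with TopHat or STAR and counted with HTSeq; versions and the strand setting are not given in the sources used here. Gene rows of 21 libraries were used, and the 28.0% to 42.8% of reads not on genes were left out. Of 53515 identifiers, 84.3% matched GENCODE 44 on GRCh37. The genes and lists were chosen with earlier results of these data known. Levels are CPM from the total on genes, with Wilson intervals; differences use log2(CPM + 1), ratios have exact conditional intervals, and a library at 0 was set to 3 counts for a bound. The other filament, linker, lamina and neuronal genes were tested with edgeR 4.0.16 (R 4.3.3, TMM, filterByExpr, quasi-likelihood, Benjamini-Hochberg threshold 0.05 over all genes tested), after a check on simulated data. The HCC4006ER test left out the genes without counts in HCC4006P1 replicate 1, which include EMD and PLEC, and the test over 7 lines used HCC4006P1 replicate 2. Genes named are those called with a log2 fold change past 1, the 3 highest of each list by mean CPM, genes overlapping a member and the 3 most correlated genes. Alternatives were DESeq2 1.42.0, no filter, a replicate block, libraries left out, TMM-scaled CPM and a pseudocount of 0.1 CPM. Samples were grouped by their labels.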

Additional observations from a re-analysis of the deposited data

Results flagged for a closer look

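Between the HepG2 pair and the HCC4006P1 pair, 2 of the filament genes moved in opposite directions in all libraries. INA changed by -1.23 in HepG2S3 and 0.67 in HCC4006ER, and LMNA by 1.33 and -0.40, on the log2(CPM + 1) scale, and this difference was not tested.

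For 20 of 27 named genes the change in HCC4006ER differed from that in HepG2S3 in the interaction test of edgeR, with adjusted p from 1.96e-07 to 0.0348, beside 55.9% of all 14479 genes tested. Most of these genes were named for their change in 1 of the pairs, so the count is no result about them. The HCC4006ER change minus the HepG2S3 change, on the log2 scale, was positive for IFFO1 (5.57), DSP (1.32), SYNE1 (0.55), SYNC (1.76), IFFO2 (3.83), CHGB (4.09), NCAM1 (8.57) and SCG2 (2.86). It was negative for SYNE2 (-2.36), TRIM2 (-1.62), PPL (-4.96), TMPO (-2.49), PRPH (-4.18), TCHP (-0.86), SUN1 (-1.27), EVPL (-11.73), BANF1 (-0.88), ANKLE2 (-1.65), MAP2 (-11.42) and ENO2 (-1.53). The sizes for EVPL, MAP2, NCAM1, SCG2, PRPH, CHGB and IFFO1 rest on libraries with 10 or fewer counts and depend on the prior count, and IFFO1 and PRPH had too few counts to be tested in the HCC4006ER pair alone.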

How the results depend on the processing

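Of 60 changes of the filament genes, TMM-scaled library sizes turned the sign of 1 and a pseudocount of 0.1 CPM of 0. Leaving out a library turned 0 of 58, and without HepG2 replicate 2 the changes of SYNM in HepG2S3 (1.00) and of INA in HepG2S1 and HepG2S3 (-0.18) came under 2-fold. With libraries left out, the filament system count ran from 14 to 30 in HepG2S3 and from 10 to 22 in HCC4006ER, and the count of all genes from 7341 to 13242 in HepG2S3 and in HCC4006ER from 4046 (without HCC4006ER replicate 1) to 8370. With the genes without counts in HCC4006P1 replicate 1 kept, 9 filament system genes and 3417 of all genes passed. Over 7 lines DESeq2 called 2 neuronal markers and 106 genes, where edgeR called 0; the cause was not tested. The replicate numbers were not shown to pair the libraries (correlation of deviations 0.0105 for the HepG2 pair and 0.262 for the HCC4006P1 pair), and with the replicate block 23 and 18 filament system genes, 4 and 6 neuronal markers and 10561 and 7787 of all genes passed in HepG2S3 and HCC4006ER. Lines with 1 library have no replicate error, and levels under 3 counts were not detectable at this depth.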
